A study of Homo sapiens with 48 samples.

Results

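The comparison described here is the change between 3 h and 6 h in HEK293T cells subjected to T-REX on NCBP1. It uses 8 of the 48 RNA sequencing libraries of the series, 4 taken at 3 h and 4 at 6 h, and all genes of the count tables were tested. The members were chosen by the labels alone (T-REX arm, time of 3 h or 6 h). T-REX delivers a reactive electrophile to 1 protein of interest: the protein is fused to Halo, a self-labelling enzyme, the cells are given the photocaged probe Ht-PreHNE, which binds Halo covalently, unbound probe is rinsed away, and light then releases 4-hydroxynonenal (HNE) beside the fusion protein. HEK293T is a line of human embryonic kidney cells, and NCBP1-Halo was introduced into it by transient transfection of a plasmid, so the fusion was overexpressed beside the cells' own NCBP1. The cells of every arm carried the fusion. The control arms, each also with 4 libraries at each time, were light alone, probe alone and DMSO. They were fitted together with the T-REX libraries at 3 h and 6 h (32 libraries in all) and serve here to show which changes between the times were shared. The methods list the light-alone control with probe as well as light, while its label names UV only, so whether those cells received the probe is not settled by these sources. The replicates are described as independent biological replicates.

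HNE is an aldehyde formed when membrane lipids are oxidized, and it reacts with cysteine side chains. NCBP1 pairs with NCBP2, the cap-binding subunit, in the nucleus. The complex holds the cap of new RNA polymerase II transcripts and links them to splicing, export, decay and the first rounds of translation. Cells answer reactive electrophiles and unfolded proteins through known transcription programs, among them the heat shock response, the unfolded protein response of the endoplasmic reticulum (ER), the integrated stress response and the NRF2 antioxidant response.

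NCBP1 itself was measured first. Its RNA, of the plasmid and of the cells' own gene together, was at 91430.1, 75517, 78660.3 and 55082 CPM (counts scaled to library size with TMM factors) in replicates 1 to 4 at 3 h and at 73191, 65049.5, 70521 and 79129 CPM at 6 h. The groups overlapped, replicate 1 at 3 h was the highest and replicate 4 at 3 h the lowest, and the difference was -0.06 ± 0.14 (log2 of 6 h over 3 h, with its standard error; edgeR, adjusted p = 0.79). Over the same hours the log2 difference of NCBP1 was -0.56 in the light-alone arm, 0.36 in the probe-alone arm and -0.00 in the DMSO arm, and that with light alone passed the test (edgeR, adjusted p = 0.0051).

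The T-REX libraries held 23952455 to 28997821 counts at 3 h and 28648934 to 35492475 at 6 h, so depth was mostly higher at 6 h, and its part in the results was not tested. Of 11 markers of this cell line and its lineage, 10 were in the tables, among them IRS4, VIM and the keratins KRT8 and KRT18, with a summed level of 974 to 1190.3 CPM at 3 h and 1106 to 1196 CPM at 6 h. CDH2 and NEFL were among those higher at 6 h. Of 19 markers of blood, endothelium, fibroblasts, hepatocytes and muscle, COL1A1 alone was listed, at 2.79 to 4.44 CPM over both times. The 3 h libraries were less alike than the 6 h libraries: the standard deviation over genes of a library's log2 deviation from its group mean was 0.225, 0.125, 0.221 and 0.170 for replicates 1 to 4 at 3 h and 0.0834 to 0.117 at 6 h. Replicates 1 and 3 at 3 h stand apart most, and counts made without both are given beside the larger counts of genes they move by more than 1.5 times. Some of the smallest counts of the gene lists also moved, and not all of these are given. The mean GC content of counted transcripts, weighted by counts, ranged from 46.3% to 47.3% at 3 h and from 46.4% to 46.8% at 6 h.

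Between 3 h and 6 h, many genes changed by a small amount. Of 14685 genes tested, 3138 (21.4%) passed edgeR's quasi-likelihood test at an adjusted p of at most 0.05, 1791 of them higher at 6 h (12.2%) and 1347 lower (9.17%). The median log2 difference was 0.34 among those higher and -0.31 among those lower, against -0.01 over all genes tested. The difference reached 2-fold in 19 genes higher and 20 lower. All 4 values at 6 h lay above all 4 values at 3 h in 1854 genes (12.6% of those tested), 1482 of them called, and below them in 1044 genes (7.11%), 799 of them called. Without replicates 1 and 3 at 3 h, an alternative chosen after the data were seen, 1893 genes were called, 1152 higher and 741 lower, and 1779 of these were among the 3138. Fitted alone, the 8 T-REX libraries gave 1935 calls, and without replicate 3 at 6 h the genes called lower were 844 in number. The labels give no batch of preparation or sequencing, so time and any such batch cannot be told apart in a comparison of 6 h with 3 h. In bulk RNA, a change in the level per cell and a change in the share of cells that express a gene cannot be told apart either.

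By the rule for naming genes (called, a mean of at least 100 counts, no overlap between the groups, largest log2 difference), the 10 leading genes were ADGRG6, SLC40A1, UNC5C, SCN9A, NHS, NR5A2, MAML3, CXXC4, BATF3 and SLC2A12, with differences of 1.01 to 1.19. ADGRG6, an adhesion G protein-coupled receptor, was at 4.26, 3.73, 3.08 and 4.13 CPM at 3 h and at 8.32, 8.08, 9.14 and 9.16 CPM at 6 h. Every 6 h library was above every 3 h library, with means of 3.8 ± 0.529 and 8.67 ± 0.556 CPM (SD, n = 4 each), which is 2.29-fold (log2 1.19 ± 0.15, edgeR, adjusted p = 5.1e-07). UNC5C, a netrin receptor, was at 2.86, 3.73, 3.71 and 3.42 CPM at 3 h and at 7.16, 8.26, 8.25 and 6.55 CPM at 6 h, a log2 difference of 1.14 ± 0.16 (edgeR, adjusted p = 2.6e-06). The nearest libraries of the 2 times were replicate 2 at 3 h and replicate 4 at 6 h, and the groups did not overlap. CXXC4, an inhibitor of Wnt signalling, was at 13.8, 10.7, 11.1 and 13.2 CPM at 3 h and at 29, 23.3, 26.8 and 20.1 CPM at 6 h, and the log2 difference was 1.02 ± 0.11 (edgeR, adjusted p = 2.3e-08). Its 6 h libraries spread more widely than its 3 h libraries, and the groups did not overlap. MAML3, a coactivator of Notch signalling, was the most even of the 10 at 6 h, with 14.8, 14.5, 14.2 and 14 CPM against 7.83, 6.2, 6.86 and 7 CPM at 3 h. The sodium channel gene SCN9A differed by 1.07, the nuclear receptor gene NR5A2 by 1.05, the glucose transporter gene SLC2A12 by 1.01 and BATF3, a basic leucine zipper transcription factor gene, by 1.02. SLC40A1, which encodes the iron exporter ferroportin, was at 2.37, 2.87, 2.97 and 2.4 CPM at 3 h and at 4.09, 7.25, 7.29 and 5.05 CPM at 6 h. Replicates 2 and 3 at 6 h were the highest for SLC40A1, and the log2 difference of 1.16 ± 0.19 stood beside 0.61 in the light-alone arm, 0.45 in the probe-alone arm and 0.41 in the DMSO arm. The difference between its T-REX change and the mean control change was 0.67 (95% interval 0.23 to 1.10), with an adjusted p of 0.64 (edgeR).

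**Figure D1:**
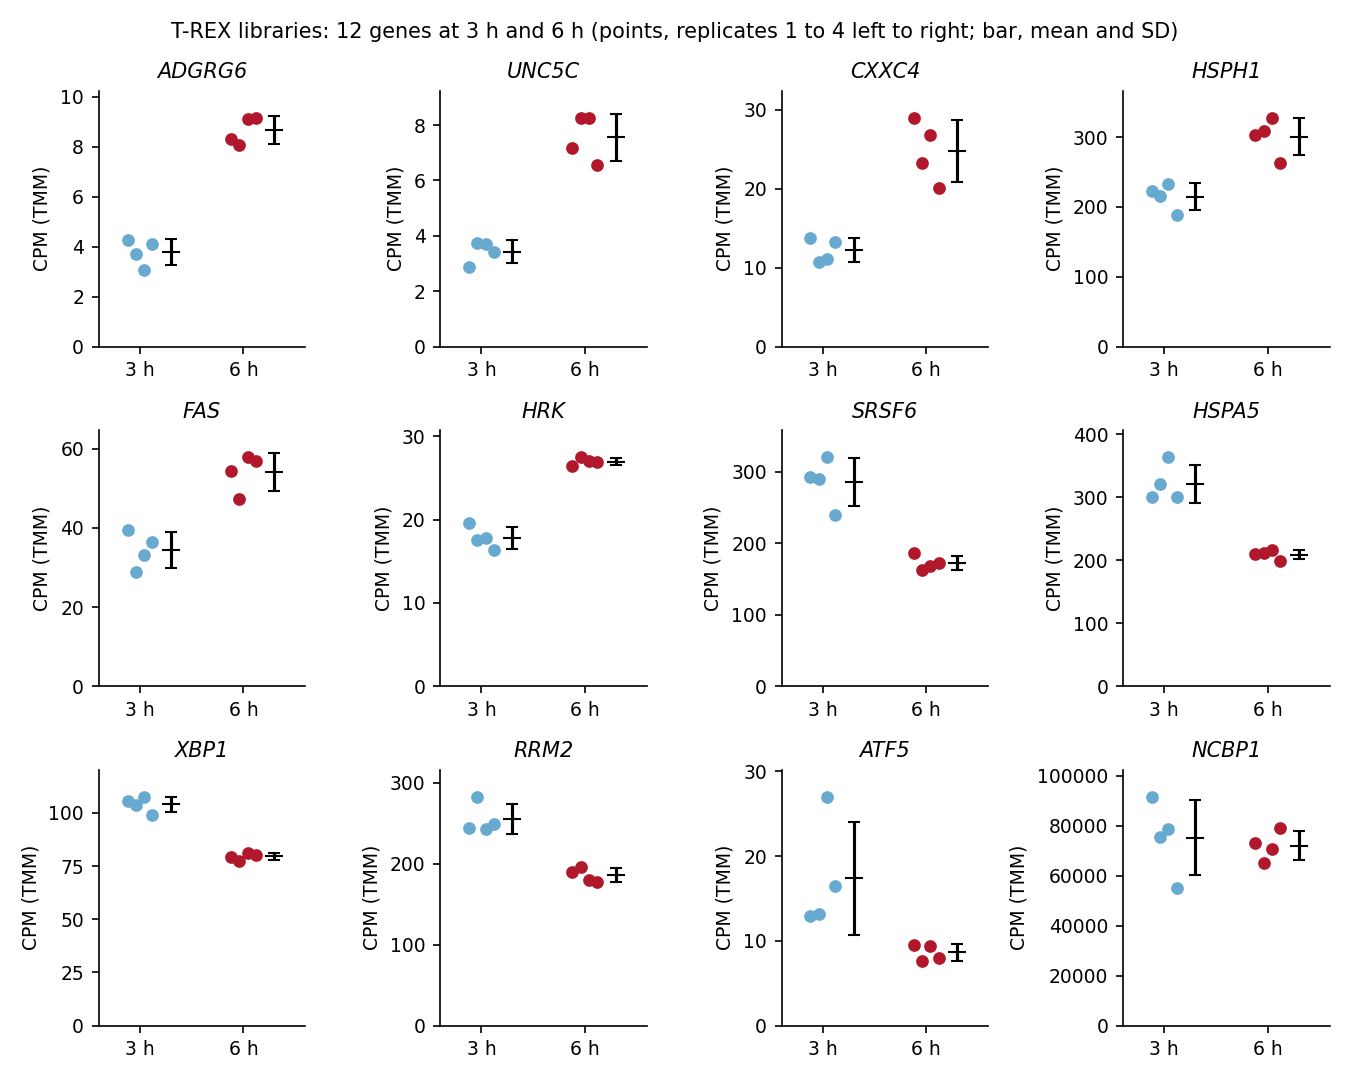
Level in each T-REX library (y axis, CPM scaled by TMM factors, from 0) at 3 h (blue) and 6 h (red) for 12 genes, with the mean and SD of the 4 replicates beside the points. In all panels except NCBP1 the 2 times do not overlap; ATF5 at 3 h is spread by replicate 3, at 27 CPM.

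The 10 leading genes with a decrease, by the same rule, were SRCAP, SND1-IT1, ATF5, LINC01619, NAP1L3, ALDH16A1, TNFRSF13C, MSTO2P, CHAC1 and ETV5, with log2 differences of -0.78 to -1.13. ATF5, a transcription factor gene of the integrated stress response, was at 12.9, 13.1, 27 and 16.4 CPM at 3 h and at 9.57, 7.63, 9.45 and 8 CPM at 6 h. Replicate 3 at 3 h was the highest, the groups did not overlap, and ATF5 was 2-fold lower at 6 h (standard error 0.18 on the log2 scale; edgeR, adjusted p = 0.00012). NAP1L3, a member of the nucleosome assembly protein family, was at 9.3, 13.1, 11.1 and 10.7 CPM at 3 h and at 5.38, 6.34, 5.29 and 6.17 CPM at 6 h, 1.91-fold lower at 6 h (log2 -0.93 ± 0.14, edgeR, adjusted p = 4.6e-06). The highest 6 h library, replicate 2, lay below the lowest 3 h library, replicate 1. TNFRSF13C, which encodes the receptor for the cytokine BAFF, differed by -0.87 and ETV5, an ETS transcription factor gene, by -0.78. SRCAP, a chromatin remodelling ATPase gene, was at 14.6, 16.2, 27.4 and 36.2 CPM at 3 h and at 12.3, 10.3, 9.51 and 11.1 CPM at 6 h. Its 3 h level was carried by replicates 3 and 4, and without replicate 4 at 3 h the call was lost. ALDH16A1 (5.24, 4.76, 11.8 and 10.1 CPM at 3 h) lost its call without replicate 3 at 3 h. CHAC1, a glutathione-degrading enzyme gene of the integrated stress response, lost its call in 5 of the 8 fits that left out 1 T-REX library, those without replicate 3 or 4 at 3 h or replicate 1, 2 or 3 at 6 h. LINC01619 differed by -0.98 under T-REX and by -0.36 in the light-alone arm, -0.41 in the probe-alone arm and -0.37 in the DMSO arm. SND1-IT1 (-1.02) is a transcript named for its place within an intron of SND1, and MSTO2P (-0.84) is a pseudogene copy of MSTO1. Whether the counts of such genes include reads of the overlapping or near-identical gene cannot be told from the counts.

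Many of the same genes were also called between the times in the control arms. Between 3 h and 6 h, light alone had 3473 genes called (23.6% of 14685), probe alone 2950 (20.1%) and DMSO 2150 (14.6%). With light alone 2005 (13.7%) were higher and 1468 (10%) lower at 6 h, with probe alone 1526 (10.4%) and 1424 (9.7%), and with DMSO 1195 (8.14%) and 955 (6.5%). Of the 1791 genes higher at 6 h under T-REX, 1322 were also called higher with light alone (73.8% of the T-REX genes and 65.9% of the 2005 light-alone genes), 996 with probe alone (55.6% and 65.3% of 1526) and 746 with DMSO (41.7% and 62.4% of 1195). Of the 1347 genes lower under T-REX, 771 were called lower with light alone (57.2% and 52.5% of 1468), 690 with probe alone (51.2% and 48.5% of 1424) and 455 with DMSO (33.8% and 47.6% of 955). In the opposite direction, 1 gene was called with DMSO and 0 with light alone or probe alone. Called in the same direction in all 3 controls were 531 of the genes higher and 321 of the genes lower under T-REX, while 245 and 360 were called in none of them. Over the 14685 genes, Pearson's r of the T-REX log2 difference with the same in a control arm was 0.73 for light alone, 0.55 for probe alone and 0.35 for DMSO. These comparisons rest on separate libraries but on 1 fit, and genes are not independent replicates.

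The difference between the change under T-REX and the change in the controls was tested directly as the interaction of time and arm. With edgeR, 0 of 14685 genes (0%) passed for T-REX against the mean of the 3 controls, and the smallest adjusted p was 0.64. At an unadjusted p of at most 0.05 there were 970 genes (6.61%), and DESeq2 and limma voom also called 0. Against light alone 0 genes (0%) were called and 631 (4.3%) had an unadjusted p of at most 0.05, against probe alone 0 (0%) and 1043 (7.1%), and against DMSO 0 (0%) and 2019 (13.7%). DESeq2 called 0, 0 and 47 genes in these 3 comparisons and limma voom 0 in each. Against DMSO, DESeq2 gave an adjusted p to 5005 genes and edgeR to 14685, so the 47 and the 0 are not over the same genes. With DESeq2, 2044 genes had an unadjusted p of at most 0.05 in that comparison. MDM2, LGR4, XPOT, RPS3A and TXNRD1, described below with their lists, were among the 47 genes. So were the list members PSAT1, RPL7A, RPL9 and RPL15. The median standard error of the interaction was 0.12 on the log2 scale. With 4 libraries per group and 14685 genes tested, small and moderate differences in the time course could be missed. The genes called in T-REX cells alone are therefore not shown to differ in their time course from the controls.

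**Figure D2:**
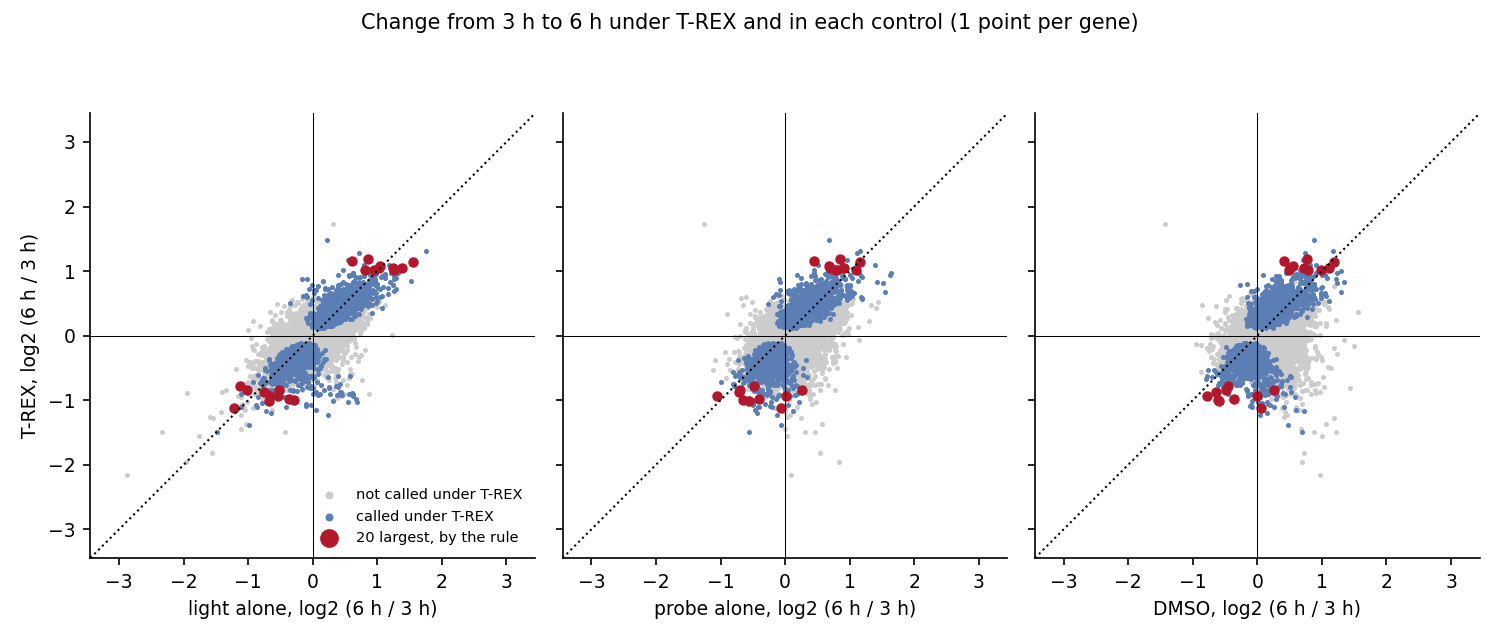
Log2 of the 6 h over the 3 h level under T-REX (y axis) against the same in each control arm (x axes), 1 point per gene for 14685 genes; blue points were called under T-REX, red points are the 20 genes named by size, and the dotted line marks equal change. The 10 red points above 0 lie to the right of 0 in all 3 panels, and Pearson's r over genes is 0.73, 0.55 and 0.35 from left to right.

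Some genes of the unfolded protein response, the ER chaperone gene HSPA5 among them, were lower at 6 h. Of 30 listed genes, all tested, 11 were lower, 19 were not called and 0 were higher (9.17% lower and 12.2% higher over all genes), with a median log2 difference of -0.16 (all genes tested, -0.01). HSPA5, the main Hsp70 chaperone of the ER (also called BiP), was at 299.5, 321, 363 and 301 CPM at 3 h and at 209, 211, 216 and 198 CPM at 6 h. Each 6 h library was below each 3 h library, and HSPA5 was 1.54-fold lower at 6 h (log2 -0.62 ± 0.08, edgeR, adjusted p = 5.7e-07). XBP1, a transcription factor that is spliced into its active form by the ER stress sensor IRE1, was at 106, 104, 108 and 99.1 CPM at 3 h and at 79.4, 77.5, 81.2 and 80.5 CPM at 6 h (log2 -0.39 ± 0.06, edgeR, adjusted p = 6.2e-06). The gene-level counts do not separate its splice forms. HERPUD1, which takes part in ER-associated degradation, was at 47.6, 41.6, 44.4 and 47.7 CPM at 3 h and 32.2, 31.1, 30.4 and 36.3 CPM at 6 h, and CREB3L2, an ER-anchored transcription factor gene, differed by -0.28. The other members called lower were MANF (-0.47), DNAJC3 (-0.25), CRELD2 (-0.65), DERL2 (-0.28), SEC61B (-0.33), SDF2L1 (-1.02) and SEL1L (-0.13). DDIT3, the gene for the transcription factor CHOP, was at 6.03 ± 0.469 CPM at 3 h and 5.27 ± 1.19 CPM at 6 h and was not called, as were HSP90B1, the ER member of the Hsp90 family (-0.07 ± 0.07), and DNAJB9 (-0.20 ± 0.11). In the controls 10 (light alone), 13 (probe alone) and 10 (DMSO) members were lower, with medians of -0.11 in the light-alone arm, -0.19 in the probe-alone arm and -0.15 in the DMSO arm, and 5 members were lower in all 4 arms. HSPA5 differed by -0.55 in the light-alone arm, -0.68 in the probe-alone arm and -0.57 in the DMSO arm, HERPUD1 by -0.55 in the light-alone arm, -0.13 in the probe-alone arm and -0.04 in the DMSO arm.

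Some promoters of these genes carry the ER stress response element, a known site of transcription factors of this response, with the sequence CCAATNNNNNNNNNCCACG in which N is any base. RefSeq promoter sequences (GRCh38.p14, 250 bases before to 50 bases after the gene start) were held for 26 of the 30 genes, matched by symbol, and 7 of them (26.9%) contained the element on either strand, against 27 of all 35116 promoters (0.0769%). The first share is of genes, with a match in any promoter of the gene, and the second is of promoter sequences, so their units differ. It was found in 3 of the 11 genes called lower (HSPA5, XBP1 and CRELD2) and in 4 of the 15 others. A stretch of 30 bases around the element is shown for the 3 genes, 5′ to 3′ on the gene's strand, with the fixed bases of the element in capitals. CRELD2 holds the reverse complement, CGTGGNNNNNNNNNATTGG.
HSPA5, chr9:125241385-125241414, - strand: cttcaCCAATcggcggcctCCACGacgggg
XBP1, chr22:28800597-28800626, - strand: gctggCCAATcgcggagggCCACGaccgta
CRELD2, chr22:49918549-49918578, + strand: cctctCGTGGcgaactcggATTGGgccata
A match of letters describes the sequence and does not show binding.

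Some cytosolic chaperone genes of the heat shock response were higher at 6 h. Of 21 genes tested, 9 were higher, 11 were not called and 1, BAG3, was lower (12.2% higher and 9.17% lower over all genes). The median log2 difference was 0.17. With the 8 T-REX libraries fitted alone 5 were higher and 0 lower, and without replicates 1 and 3 at 3 h 9 and 0. HSPH1, a nucleotide exchange factor of the Hsp70 system, was at 222, 216, 233 and 188 CPM at 3 h and at 303, 309, 327 and 264 CPM at 6 h. The lowest 6 h library (replicate 4) lay above the highest 3 h library (replicate 3), and the log2 difference was 0.49 ± 0.06 (edgeR, adjusted p = 3.9e-07). HSPA4L, a relative of HSPH1, was at 213, 209, 205 and 204 CPM at 3 h and 275, 272, 285 and 266 CPM at 6 h (log2 0.40 ± 0.04, edgeR, adjusted p = 5.9e-08). HSP90AA1, the inducible cytosolic Hsp90, differed by 0.33 ± 0.07 and HSPA8, the constitutive Hsc70, by 0.35 ± 0.07, with overlap between the times for both. DNAJB4, CACYBP, HSP90AB1, STIP1 and HSPD1 completed the genes called higher, at 0.17 to 0.29. BAG3, a cochaperone, was at 32.8 ± 8.25 CPM at 3 h and 25.2 ± 2.44 CPM at 6 h (log2 -0.38). DNAJB1 (0.01 ± 0.07) and HSPA1B (0.09 ± 0.27), which encode stress-inducible chaperones, were not called. HSPA1B has a near-identical copy, HSPA1A, so its counts are uncertain. In the controls, 10, 4 and 4 members were higher with light alone, probe alone and DMSO, and the medians were 0.23 in the light-alone arm, 0.10 in the probe-alone arm and 0.10 in the DMSO arm. HSPA4L differed by 0.34 in the light-alone arm, 0.40 in the probe-alone arm and 0.31 in the DMSO arm.

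The heat shock element, written here as GAANNTTCNNGAA with reverse complement TTCNNGAANNTTC, was found in 7 of the 19 heat shock genes with a promoter sequence (36.8%), against 172 of all 35116 promoters (0.49%). Here too the first share is of genes and the second of promoter sequences. It was present in 4 of the 9 genes called higher and in 3 of the 9 that were not called, and not in BAG3. The stretches of HSPA8 and HSP90AA1, both called higher, are shown in the same way as above.
HSPA8, chr11:123062345-123062374, - strand: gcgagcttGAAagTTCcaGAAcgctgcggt
HSPA8, chr11:123062170-123062199, - strand: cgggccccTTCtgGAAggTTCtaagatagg
HSP90AA1, chr14:102087111-102087140, - strand: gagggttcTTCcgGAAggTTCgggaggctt

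The integrated stress response showed no common direction. Of 35 genes tested, 3 were higher and 3 lower (12.2% higher and 9.17% lower over all genes), and the median was -0.07. ASNS, the asparagine synthetase gene, was lower (-0.59 ± 0.13, edgeR, adjusted p = 0.0012), along with ATF5 and CHAC1. The lipoprotein receptor gene VLDLR (0.52 ± 0.10), the tRNA exporter gene XPOT (0.26 ± 0.05) and the amino acid transporter gene SLC38A2 (0.29 ± 0.06) were higher. ATF4, the transcription factor at the centre of this response, was at 393 ± 27 CPM at 3 h and 369 ± 9.46 CPM at 6 h and was not called. Of the NRF2 targets, 3 of 26 were higher (PRDX1, ME1 and ABCC4, at 0.23 to 0.31) and 0 lower; without replicates 1 and 3 at 3 h 1 was higher, and with the 8 T-REX libraries alone 1 was higher and 1 lower. HMOX1, heme oxygenase, was at 25.6 ± 2.17 CPM and 24.7 ± 3.03 CPM at the 2 times, NQO1 differed by 0.06 ± 0.17, GCLM by 0.08 ± 0.07 and TXNRD1 by 0.12 ± 0.06, none of them called. In the interaction against DMSO alone, DESeq2 called TXNRD1, with a T-REX change minus DMSO change of 0.33 (DESeq2, adjusted p = 0.047). In that comparison edgeR called 0 genes. The call of PRDX1 was lost without replicate 4 at 3 h or replicate 3 at 6 h, and that of ABCC4 without replicate 3 of either time.

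Splicing factor genes held the result with the smallest p of all genes the naming rule gave. Of 19 genes for SR proteins and their kinases, 5 were lower and 3 higher (4 and 0 with the 8 T-REX libraries alone). Over all genes the shares were 9.17% lower and 12.2% higher. SRSF6 was at 293, 290.5, 320.1 and 239 CPM at 3 h and at 187, 162, 169 and 172 CPM at 6 h. All 6 h libraries lay below all 3 h libraries, and SRSF6 was 1.66-fold lower at 6 h (log2 -0.73 ± 0.07, edgeR, adjusted p = 1.4e-09). SRSF2 was at 289, 319, 298 and 285 CPM at 3 h and at 185, 211, 195 and 178 CPM at 6 h (log2 -0.63 ± 0.08, edgeR, adjusted p = 9.8e-07). SRSF4, SRSF7 and SRSF3 were lower by smaller amounts (-0.23, -0.18 and -0.16), and SRSF10, TRA2A and TRA2B were higher (0.17, 0.16 and 0.15). SRSF6 differed by -0.60 in the light-alone arm, -0.65 in the probe-alone arm and -0.52 in the DMSO arm, SRSF2 by -0.50 in the light-alone arm, -0.77 in the probe-alone arm and -0.78 in the DMSO arm, and 3 members were lower in all 4 arms. For SRSF6 the T-REX change minus the mean control change was -0.14 (95% interval -0.30 to 0.02).

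Genes of the cap-binding complex and its partners were counted in the same way. Of 22 genes tested, 3 were lower and 0 higher (9.17% lower and 12.2% higher over all genes), with a median of -0.10, and 16 had a log2 difference below 0. In the controls 5 (light alone), 6 (probe alone) and 4 (DMSO) members were lower, and 1 was higher with DMSO. The medians were -0.11 in the light-alone arm, -0.12 in the probe-alone arm and -0.03 in the DMSO arm. NCBP2, the cap-binding subunit that pairs with NCBP1, was at 34.7, 33.9, 37.2 and 33.3 CPM at 3 h and at 30.7, 27.4, 28.7 and 26.5 CPM at 6 h (log2 -0.30 ± 0.07, edgeR, adjusted p = 0.0029). NCBP3, a further cap-binding protein, differed by -0.25 ± 0.04 and EIF4A3, the core helicase of the exon junction complex, by -0.35 ± 0.07, and none of these 3 genes overlapped between the times. In the controls NCBP2 differed by -0.15 in the light-alone arm, -0.23 in the probe-alone arm and -0.10 in the DMSO arm. Of 21 snoRNA host genes, 5 were lower (EPB41L4A-AS1, SNHG17, ZFAS1, GAS5 and SNHG12; 2 without replicates 1 and 3 at 3 h) and 0 higher, with a median of -0.17; GAS5 was at 118, 121, 118 and 108 CPM at 3 h and 105, 101, 99.4 and 102 CPM at 6 h.

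Of 33 genes of the G1/S transition and of DNA replication, 10 were lower, 22 were not called and 1, E2F7, was higher (9.17% lower and 12.2% higher over all genes; 5 lower and 1 higher without replicates 1 and 3 at 3 h), with a median of -0.17 and medians of -0.17 in the light-alone arm, -0.12 in the probe-alone arm and -0.08 in the DMSO arm. RRM2, a subunit of ribonucleotide reductase, was at 245, 283, 244 and 249 CPM at 3 h and at 190.4, 196, 180.3 and 177 CPM at 6 h (log2 -0.46 ± 0.06, edgeR, adjusted p = 4.1e-07). Replicate 2 at 3 h was the highest, and the groups were apart by more than the spread within either. CLSPN (claspin, a replication checkpoint adaptor) differed by -0.43, the replication licensing factor gene CDC6 by -0.41 and the cyclin gene CCNE2 by -0.38. RRM2, the member with the smallest p, differed by -0.44 in the light-alone arm, -0.47 in the probe-alone arm and -0.41 in the DMSO arm. Among 28 G2/M genes 3 were higher (KIF20A, HMMR and TOP2A, at 0.21 to 0.39) and 2 were lower (UBE2C and CDC20, at -0.36 and -0.38), with a median of 0.04. Without replicates 1 and 3 at 3 h these counts were 3 and 1. After correction for GC content and transcript length they were 3 and 7. In the controls 5 were higher and 3 lower with light alone, 2 and 8 with probe alone and 1 and 9 with DMSO. Their medians were 0.03, -0.07 and -0.11 in that order. The call of CDC20 was lost without replicate 3 at 3 h.

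Of 27 p53 targets, 11 were higher, 15 were not called and 1, BAX, was lower (12.2% higher and 9.17% lower over all genes), with a median of 0.20. SESN1, a stress-inducible sestrin, was at 54.7, 51.4, 49.2 and 53.4 CPM at 3 h and at 73.5, 71.1, 70.9 and 67.6 CPM at 6 h (log2 0.44 ± 0.06, edgeR, adjusted p = 1.1e-06). FAS, a death receptor gene, was at 39.4, 28.9, 33.2 and 36.4 CPM at 3 h and at 54.4, 47.3, 57.8 and 56.8 CPM at 6 h (log2 0.65 ± 0.12, edgeR, adjusted p = 0.0002). Neither gene overlapped between the times. TIGAR differed by 0.58, TP53INP1 by 0.51, the cell cycle inhibitor gene CDKN1A by 0.51 ± 0.16 and MDM2, which encodes the ubiquitin ligase of p53, by 0.30 ± 0.09. The controls differed among themselves here: light alone had 3 members higher, probe alone 18 and DMSO 19, at medians of 0.05 in the light-alone arm, 0.42 in the probe-alone arm and 0.44 in the DMSO arm. The interaction of time and arm against the mean of the controls was not called for any of the 27 genes with edgeR, and 1 had an unadjusted p of at most 0.05. Against DMSO alone, DESeq2 called MDM2, with a T-REX change minus DMSO change of -0.46 (DESeq2, adjusted p = 0.047 over 5005 genes). There edgeR called 0 of 14685 genes. HEK293T cells carry the SV40 large T antigen, which binds p53.

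Histone genes need the values of each library. Of 38 replication-dependent histone genes tested, 7 were lower and 1, H1-3, was higher (9.17% lower and 12.2% higher over all genes). The median was -0.47, against -0.19 in the light-alone arm, -0.05 in the probe-alone arm and 0.13 in the DMSO arm. H1-3 was at 26.9, 31, 39.8 and 33.5 CPM at 3 h and at 45.6, 53.5, 53.8 and 46.6 CPM at 6 h (log2 0.60 ± 0.10, edgeR, adjusted p = 7.3e-05). H2BC4 was at 59.2, 79.8, 136 and 96.9 CPM at 3 h and 53.4, 55.4, 63 and 57.3 CPM at 6 h, H4C5 at 11.7, 12.1, 24.4 and 9.95 CPM and 9.67, 8.19, 9.51 and 7.94 CPM, and H4C12 at 1.92, 2.01, 7.52 and 1.73 CPM and 1.39, 1.57, 2.02 and 1.36 CPM. Replicate 3 at 3 h was the highest library for all 3 genes, and each of the 3 lost its call without it. Without replicates 1 and 3 at 3 h, 2 histone genes were lower and 1 higher, and with the 8 T-REX libraries alone 0 were lower and 1 higher. Histone genes of 1 class are near copies of each other, so counts may be split between them. Total RNA was depleted of ribosomal RNA rather than selected for poly(A) tails, so transcripts without such tails were kept.

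Several calls among mitochondrial and ribosomal protein genes were lost without replicate 3 at 3 h. Of 76 nuclear genes of oxidative phosphorylation, 16 were lower and 1, SDHC, was higher (9.17% lower and 12.2% higher over all genes), with a median of -0.13. Without replicates 1 and 3 at 3 h, 4 were lower and 0 higher, and in the fit of the 8 T-REX libraries alone 5 and 0. In the controls 4 were lower and 5 higher with light alone, 4 and 0 with probe alone and 1 and 0 with DMSO. Their medians were 0.003, -0.11 and 0.01 in that order. The interaction against the mean of the controls was called for 0 of the 76, and 12 had an unadjusted p of at most 0.05 (edgeR, 6.61% over all genes). NDUFA3, a subunit of complex I, was at 16.9, 17, 18.4 and 17.5 CPM at 3 h and 12.3, 14.8, 13.6 and 13.1 CPM at 6 h without overlap, NDUFAB1 at 15.9, 14.8, 24.7 and 21.5 CPM and 14.9, 12.5, 13.9 and 11.6 CPM with overlap. COX4I1 (-0.34) lost its call without replicate 3 at 3 h. Of the 15 mitochondrially encoded transcripts, MT-ND3 (-0.64) and MT-ND1 (-0.18) were lower. MT-ND3 was at 109, 99.3, 185 and 85.6 CPM at 3 h, with replicate 3 far above the others, and both calls were lost without that library and without other single libraries, and with the 8 T-REX libraries alone. Of 79 cytosolic ribosomal protein genes, 1 was higher (RPS3A, 0.29) and 2 were lower (RPL37, -0.45, and RPS29, -0.39), fewer than the shares over all genes, and RPL37 and RPS29 lost their calls without replicate 3 at 3 h; without replicates 1 and 3 at 3 h 0 of the 79 were called. Of 20 cytosolic aminoacyl-tRNA synthetase genes, HARS1, YARS1 and RARS1 were lower (-0.25, -0.29 and -0.15) and 0 were higher (1 lower without replicates 1 and 3 at 3 h).

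Of 23 genes of sterol synthesis and uptake, 7 were lower, 15 were not called and 1, STARD4, was higher (9.17% lower and 12.2% higher over all genes). Without replicates 1 and 3 at 3 h, and with the 8 T-REX libraries alone, 4 were lower and 0 higher. The median was -0.13 beside -0.05 in the light-alone arm, -0.13 in the probe-alone arm and -0.19 in the DMSO arm. NSDHL, an enzyme of cholesterol synthesis, was at 35.8, 35, 41.8 and 30.9 CPM at 3 h and at 25.6, 23.8, 26.1 and 21.4 CPM at 6 h (log2 -0.57 ± 0.09, edgeR, adjusted p = 3.7e-05). The isomerase gene IDI1 differed by -0.34. Neither gene overlapped between the times. MVD (4.82, 6.56, 15.6 and 11.9 CPM at 3 h, -0.85) lost its call without replicate 3 at 3 h. Of 15 genes of fatty acid synthesis, ELOVL6, FADS1, ELOVL5 and ME1 were higher, ACLY was lower and 10 were not called. ELOVL6, a fatty acid elongase, was at 34.5, 40.4, 34.2 and 33.3 CPM at 3 h and 52.6, 54.7, 54.5 and 46.1 CPM at 6 h (log2 0.54 ± 0.08, edgeR, adjusted p = 9.1e-06).

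Of 10 genes of TGF-beta and BMP signalling tested, 6 were higher and 4 were not called, against 12.2% higher over all genes. The list holds a ligand gene, BMP4, and a coreceptor gene, TGFBR3, beside targets of these pathways. All 10 had a log2 difference above 0, with a median of 0.36. TGFBR3, a coreceptor for TGF-beta, was at 37.1, 35.3, 35.8 and 36.1 CPM at 3 h and at 50.9, 57.8, 55 and 48.7 CPM at 6 h (log2 0.56 ± 0.06, edgeR, adjusted p = 1.2e-07). The genes for the dominant-negative helix-loop-helix factors ID2 and ID4 differed by 0.39 and 0.35, the SMAD corepressor gene SKIL by 0.35, and the inhibitory SMAD gene SMAD6 by 0.45. BMP4 (0.61), described below among the genes the study names, was the other member called higher. In the controls 5, 7 and 7 members were higher, with medians of 0.41 in the light-alone arm, 0.36 in the probe-alone arm and 0.30 in the DMSO arm, and 4 were higher in all 4 arms. Of 10 Wnt feedback genes, LEF1, LGR4 and LGR5 were higher and ZNRF3 was lower. LEF1, a transcription factor and target of Wnt signalling, was at 52.1, 48.5, 48.2 and 48.2 CPM at 3 h and 67.2, 72.8, 70.3 and 72 CPM at 6 h (log2 0.52 ± 0.06, edgeR, adjusted p = 5e-08). Of the Notch targets 1 of 6, HES1 (0.46), was higher.

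For the lists that follow, the shares over all genes were 12.2% higher and 9.17% lower. Of 9 retinoid response genes, CYP26B1, which degrades retinoic acid, and RARB were higher (0.74 and 0.34) and CRABP2 was lower (-0.72, lost without replicate 2 or 3 at 3 h or replicate 3 at 6 h). Of 17 circadian clock genes, RORA, BHLHE41, CLOCK and NPAS2 were higher and PER2, CRY2 and CRY1 lower (1 and 2 without replicates 1 and 3 at 3 h), with PER2 at 35.6, 35.1, 37.9 and 38.9 CPM at 3 h and 25.8, 28.7, 23.8 and 28.1 CPM at 6 h. Of 33 immediate early genes, 4 were higher (KLF6, HES1, SPRY2 and BTG2) and 4 lower (SPRED1, FOSB, IER2 and SPRED2); without replicates 1 and 3 at 3 h these counts were 6 and 1. FOS was at 3.08 ± 1.11 CPM and 3.19 ± 0.617 CPM at the 2 times and EGR1 at 6.89 ± 2.2 CPM and 5.53 ± 0.65 CPM, neither called. In the controls 2 immediate early genes were higher and 2 lower with light alone, 6 and 0 with probe alone and 9 and 0 with DMSO. Of 32 hypoxia genes, 3 were higher (KDM7A, MXI1 and PDK3) and 3 lower (ALDOA, HK2 and PDK1), and ALDOA, at 2.04 ± 0.938 CPM at 3 h, lost its call without replicate 3 at 3 h. In the controls 10 hypoxia genes were higher and 1 lower with light alone, 8 and 1 with probe alone and 5 and 0 with DMSO. The medians were -0.04 under T-REX, 0.10 in the light-alone arm, 0.09 in the probe-alone arm and 0.05 in the DMSO arm. Of 6 genes that answer glucose through MondoA, ARRDC3 was higher (0.30) and ARRDC4 lower (-0.32), both calls lost without some single libraries. The zinc importer gene SLC39A10 and the zinc exporter gene SLC30A1 were higher, 2 of 4 genes tested for metal response. Of 6 aryl hydrocarbon receptor genes ARNT and CYP1B1 were higher, and of 8 interferon response genes IFIT5 was higher and RIGI lower, with the calls of CYP1B1 and RIGI lost without some single libraries.

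Of the genes named in the account of these cells that accompanies the data, 23 are followed here. Most were picked from comparisons between arms in this series, so their direction over time is not independent of that choice. Among these is EIF4EBP1, a regulator of translation, which the study lists with genes of altered splicing. SF3A1, a spliceosome component, was named on other grounds. Of the 23, 8 were higher at 6 h and 4 lower under T-REX (8 and 2 without replicates 1 and 3 at 3 h), against 12.2% higher and 9.17% lower over all genes. HRK, a proapoptotic BH3-only protein gene, was at 19.5, 17.5, 17.8 and 16.3 CPM at 3 h and at 26.4, 27.4, 27.1 and 26.9 CPM at 6 h. The 6 h values were nearly equal and all above 3 h, with a log2 difference of 0.60 ± 0.08 (edgeR, adjusted p = 1.7e-06) beside 0.48 in the light-alone arm, 0.47 in the probe-alone arm and 0.49 in the DMSO arm. BMP4, a secreted signalling protein gene, was at 12.8, 11.4, 12.5 and 12 CPM at 3 h and at 15.1, 20.3, 21.6 and 17.2 CPM at 6 h (log2 0.61 ± 0.12, edgeR, adjusted p = 0.0004). MAP2K6, a kinase gene of the p38 pathway, was at 28.6, 26.5, 27.3 and 27.3 CPM at 3 h and at 36.4, 41.2, 41 and 34.4 CPM at 6 h, a difference of 0.48 beside 0.92 in the light-alone arm, 0.39 in the probe-alone arm and 0.38 in the DMSO arm. DACH1 (0.42), SESN3 (0.42), IGFBP5 (0.43), the neural transcription factor gene POU3F2 (0.34) and the RNA-binding protein gene QKI (0.29) were the other genes called higher. RPS6KB1, which encodes the ribosomal S6 kinase, was at 171, 169.6, 151 and 147 CPM at 3 h and at 124, 119, 119 and 119 CPM at 6 h (log2 -0.41 ± 0.06, edgeR, adjusted p = 7.7e-06). The groups did not overlap, and the controls differed by -0.38 in the light-alone arm, -0.47 in the probe-alone arm and -0.48 in the DMSO arm. XBP1, YARS1 (-0.29) and TINCR (-0.61) were the others called lower, and TINCR, at 7.98, 5.62, 6.93 and 6.65 CPM at 3 h and 5.05, 3.55, 3.81 and 5.36 CPM at 6 h, lost its call without replicate 1 or 3 at 3 h or replicate 2 or 3 at 6 h. Of the 11 not called, CXCR4 came nearest (0.44 ± 0.16, edgeR, adjusted p = 0.051). SF3A1, BNIP3, BNIP3L, THOC7, MYBL2, SNRPD3, TXNIP, EGLN3, EIF4EBP1 and MARS1 had differences between -0.25 and 0.20. The interaction with the controls was called for 0 of the 23 genes (0% of all genes), and 2 had an unadjusted p of at most 0.05.

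**Figure D3:**
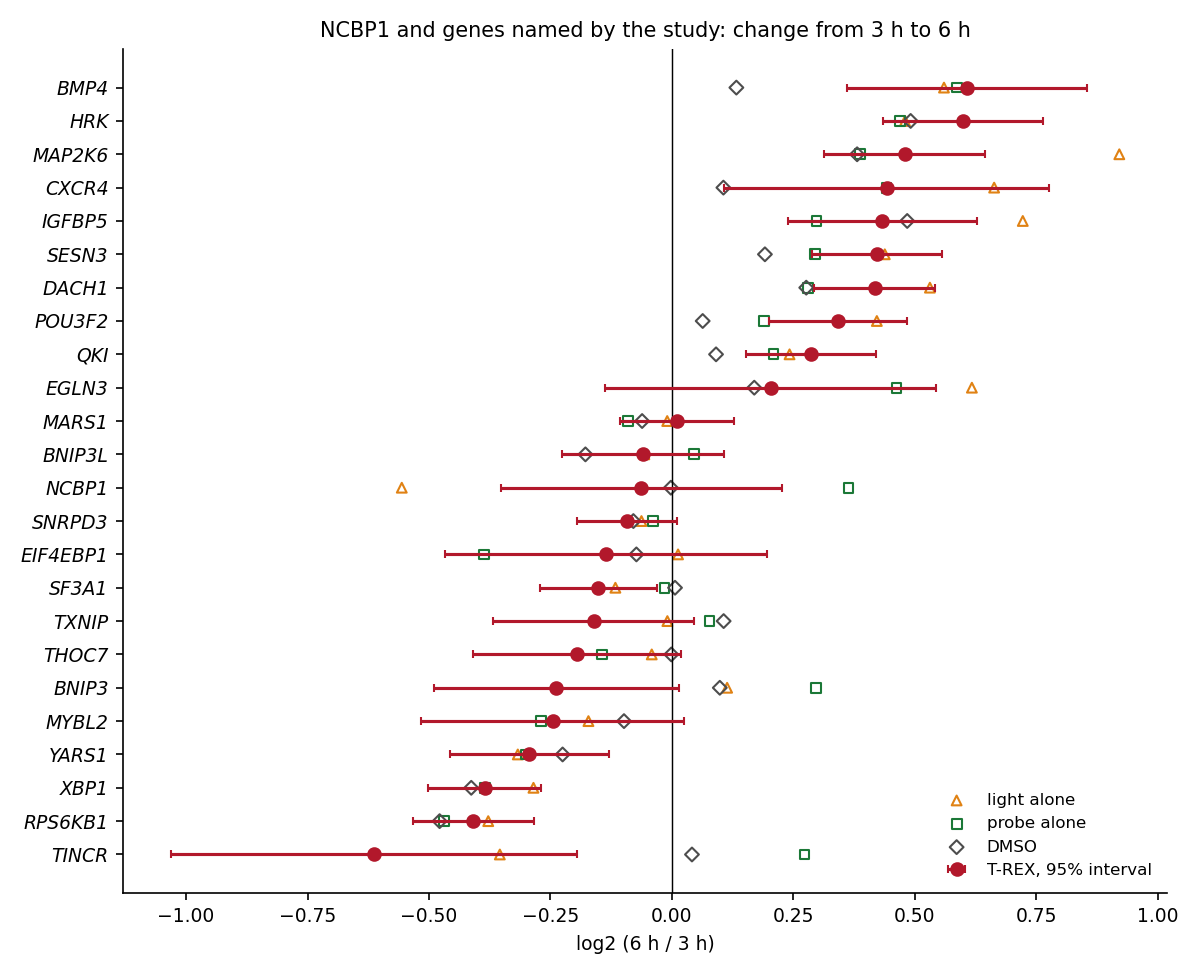
Log2 of the 6 h over the 3 h level (x axis) under T-REX, with 95% intervals (red), and in the 3 control arms (open symbols) for NCBP1 and 23 genes the study names. HRK, BMP4 and MAP2K6 lie to the right and RPS6KB1, XBP1 and YARS1 to the left; the control symbols of HRK and XBP1 lie inside the T-REX interval.

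The genes higher at 6 h were often long ones. The genomic span of each gene was taken from GENCODE 29, which held 14556 of the 14685 gene IDs. In the quintile of genes with the longest span (95.3 kb or more), 25.4% were called higher and 5.81% lower under T-REX, and in the shortest quintile (up to 7.01 kb) 4.74% and 7.97%. Among the 10 leading genes that rose, MAML3 spans 437 kb, UNC5C 387 kb and NHS 361 kb, while BATF3 spans 13.6 kb. The median log2 difference went from -0.09 in the shortest to 0.08 in the longest quintile under T-REX, from -0.04 to 0.09 in the light-alone arm, from -0.01 to 0.06 in the probe-alone arm and from 0.03 to 0.05 in the DMSO arm. Spearman's rho of the T-REX difference with span was 0.26 over genes, and that with the GC content of the transcript -0.26 (light alone -0.33, probe alone -0.09, DMSO 0.17). The lowest quintile by GC content had a T-REX median of 0.05 and the highest quintile -0.14. After correction for GC content and transcript length, an alternative added after the data were seen, the medians of the shortest and longest spans were -0.06 and 0.05. Then 3945 genes were called, 1954 higher and 1991 lower, and 2867 of them were among the 3138. Some list counts moved with the correction. For aminoacyl-tRNA synthetase genes 7 were then lower and 0 higher (3 and 0 in the main analysis). For cytosolic ribosomal protein genes 7 were lower and 5 higher (2 and 1 in the main analysis). The part of GC content, span and library preparation in the time difference was not tested further.

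**Figure D4:**
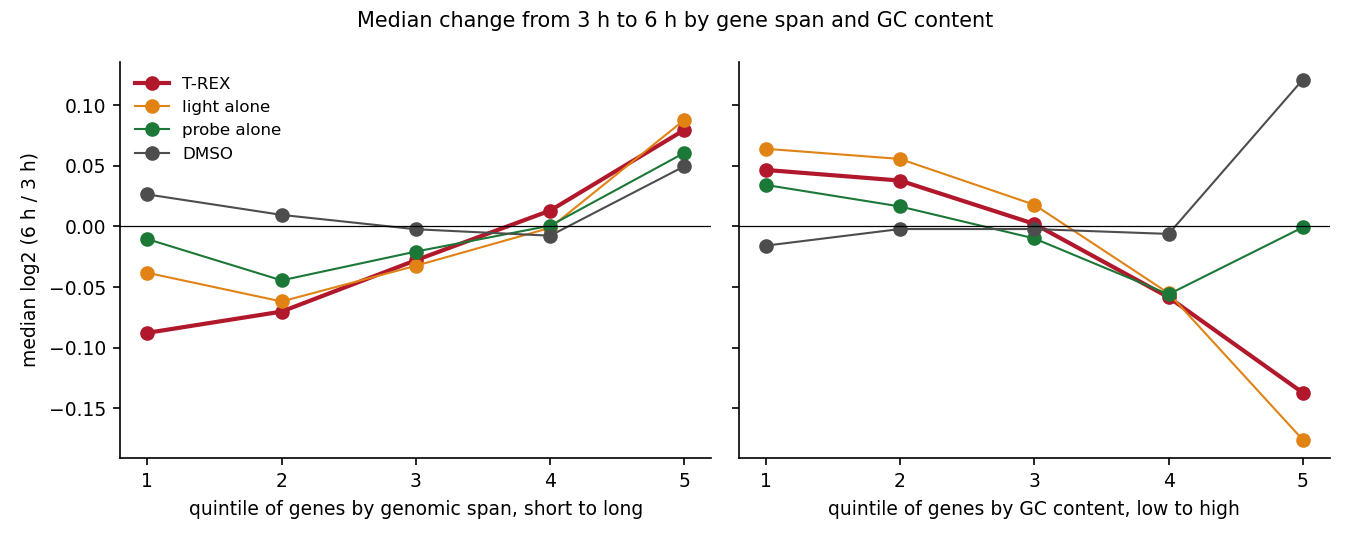
Median log2 of the 6 h over the 3 h level (y axis) in quintiles of genes by genomic span (left) and by GC content (right), for T-REX and the 3 control arms. The T-REX line goes from -0.09 to 0.08 with span and from 0.05 to -0.14 with GC content, and DMSO goes up at the highest GC content.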

How the data were processed

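Total RNA from HEK293T cells expressing NCBP1-Halo was depleted of ribosomal RNA, made into stranded libraries and sequenced as paired ends on a NovaSeq instrument. The authors deposited raw counts of reads per gene, 1 table for each time point, and bcl2fastq is named in the submitters' processing notes. The software list that accompanies the paper includes tophat, an aligner, with cutadapt and cufflinks, but does not tie them to the raw counts; the counter and the genome build behind the counts are not given in the sources used here. Fold changes and other deposited tables were not used, and neither were the tables of 12 h.

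The 3 h and 6 h tables were joined by gene ID (14685 genes in both, with counts of at least 2 in every library), and groups were taken from the labels. All 32 libraries of 3 h and 6 h were fitted together with edgeR 4.0.16 in R 4.3.3 (TMM factors of 0.966 to 1.06, 1 mean per arm and time, robust quasi-likelihood F-test, Benjamini-Hochberg adjustment over all 14685 genes, threshold of 0.05). Contrasts were T-REX 6 h against 3 h, the same in each control arm, and the differences between them. The fitted biological coefficient of variation was 11.0%. No filter on low counts was needed. Total counts of 23952455 to 35492475 per T-REX library set the precision of low genes. The fitting script was tested on simulated data. No pair of T-REX replicates agreed within sampling noise (chi-square per degree of freedom of 5.07 to 46.5).

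Genes with a symbol numbered 13451, and 692 of 780 entries in 29 gene lists were matched. Named genes were the 10 largest differences in each direction among called genes with a symbol, a mean of at least 100 counts and no overlap between the times, up to 4 called members of each list with the smallest p, and NCBP1 with 23 genes the study names. Other members of the lists given with values were named after these were seen. The comparison, the lists and their members were chosen with earlier results of these data known. Lists were described by counts and medians, with no set test. Alternatives were DESeq2 1.42.0, limma 3.58.1 (voom), relative log expression factors, other filters, NCBP1 left out, the replicate number as a block, fewer libraries, and, added after the data were seen, a GC and length correction and a fit without replicates 1 and 3 of T-REX at 3 h. Promoter sequences were RefSeq's for GRCh38.p14. Values of some genes are not reported here.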

Additional observations from a re-analysis of the deposited data

Results flagged for a closer look

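Within each group of 4 T-REX libraries, the library at either end was compared with the other 3 for every named gene, and 13 of 266 groups held 1 library far from the rest by Dixon's test. Chance flags about 1 in 20 groups. CLSPN was at 132 CPM in replicate 4 at 3 h, with the others between 151 and 152 CPM. H4C12 was at 7.52 CPM in replicate 3 at 3 h, with the others between 1.73 and 2.01 CPM. H4C5 was at 24.4 CPM in replicate 3 at 3 h, with the others between 9.95 and 12.1 CPM. LEF1 was at 52.1 CPM in replicate 1 at 3 h, with the others between 48.2 and 48.5 CPM. ME1 was at 17.4 CPM in replicate 3 at 3 h, with the others between 18.7 and 18.9 CPM. NDUFA10 was at 99.3 CPM in replicate 3 at 3 h, with the others between 122 and 126 CPM. RRM2 was at 283 CPM in replicate 2 at 3 h, with the others between 244 and 249 CPM. YARS1 was at 200.4 CPM in replicate 4 at 3 h, with the others between 228 and 234 CPM. ZFAS1 was at 19.1 CPM in replicate 1 at 3 h, with the others between 16 and 16.3 CPM. ABCC4 was at 63.8 CPM in replicate 3 at 6 h, with the others between 58.6 and 59 CPM. ELOVL5 was at 199 CPM in replicate 4 at 6 h, with the others between 217 and 221 CPM. KLF6 was at 60.2 CPM in replicate 4 at 6 h, with the others between 61.9 and 62.2 CPM. RPS6KB1 was at 124 CPM in replicate 1 at 6 h, with all the others at 119 CPM. Of the 9 such values at 3 h, 4 were in replicate 3, and H4C12 and H4C5 lost their calls without it. No difference between T-REX and the mean of the controls passed the edgeR test of the interaction in the main analysis (0 genes, with 970 at an unadjusted p of at most 0.05; DESeq2 and limma voom 0).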

How the results depend on the processing

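The number of genes called between 3 h and 6 h under T-REX was 3138 in the main analysis and 3040 (limma voom) to 3945 (GC and length correction) in the alternatives that kept all libraries. DESeq2 called 3375, relative log expression factors gave 3151, the fit without NCBP1 3142 and a mean of at least 100 counts 3147. The fit with no filter also gave 3138, but the main filter removed no gene, so it repeats the main fit. The number called fell to 1935 (1181 higher, 754 lower) when the 8 T-REX libraries were fitted alone, 1900 of them among the 3138. It fell to 1893 (1152 higher, 741 lower) without replicates 1 and 3 at 3 h, and both fits hold fewer libraries. Leaving out 1 T-REX library gave 2208 to 3382 genes, 1364 to 1898 higher and 844 to 1562 lower, and the 844 came without replicate 3 at 6 h. The interaction with the mean of the controls gave 0 genes in every alternative run (609 to 1435 at an unadjusted p of at most 0.05 when 1 library was left out). Against light alone the replicate block gave 1 gene and every other setting 0, and against probe alone every setting gave 0. The 1 gene was RARB of the retinoid list, with a T-REX change minus light-alone change of -0.57 (edgeR with replicate block, adjusted p = 0.022). Against DMSO, DESeq2 called 47 of the 5005 genes to which it gave an adjusted p. The GC and length correction called 26 there and the replicate block 3. The fit without replicate 1 at 3 h called 1, and that without replicates 1 and 3 at 3 h 1 (leaving out 1 library gave 0 to 1). The cause of these differences between settings was not tested. With the replicate number as a block 3140 genes were called, 3035 of them among the 3138; deviations of same-numbered libraries correlated at 0.63, 0.10, 0.07 and 0.52, replicates 2 and 3 at 3 h did not correlate best with their own number, and the labels name no shared batch, so the numbers were not taken to pair the libraries. Of 121 named genes called, 96 kept the call in all 8 fits without 1 T-REX library and 25 lost it in at least 1. No named gene that was called changed direction in any setting. Without replicates 1 and 3 at 3 h 28 named calls were lost, and with the 8 T-REX libraries alone 18. Genes at a few CPM, such as SDF2L1 and ALDOA, have the widest errors. Intervals and tests cover the spread between these libraries, in 1 cell line.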

Other observations

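The classes of genes in GENCODE 29 differed in their share of calls between 3 h and 6 h under T-REX. Over all genes tested the shares were 12.2% higher and 9.17% lower. Of 11874 protein-coding genes, 1631 were higher at 6 h (13.7%) and 1160 lower (9.77%). Of 570 long intergenic RNA genes, 53 were higher (9.3%) and 25 lower (4.39%), and of 711 antisense genes 52 were higher (7.31%) and 32 lower (4.5%). Processed pseudogenes were mostly lower where they were called, with 5 higher (1.69%) and 31 lower (10.5%) of 295 and a median log2 difference of -0.22. Of 221 sense intronic genes 4 were higher (1.81%) and 19 lower (8.6%), with a median of -0.14. Of 40 snoRNA genes 0 were higher and 5 lower (12.5%), and of 45 genes of miscellaneous RNA 0 and 5 (11.1%). In processed pseudogenes and these 3 classes the share lower was near that over all genes, and the share higher was below it. Calls are edgeR's at an adjusted p of at most 0.05, and these counts are part of the 3138 genes called. Processed pseudogenes resemble the transcripts of their parent genes, and snoRNA and intronic genes lie within host genes, so their reads may be shared with those genes. These classes are short, and their part in the relation to gene span was not tested.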
